A study of Homo sapiens with 2 samples.

Results

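The genes of human chromosome 20 that start at position 25000000 or beyond (genome build hg38) were followed in 2 RNA-seq libraries of SAS, an established oral cancer cell line. The deposited transcript table lists 437 genes there, and the 250 that reached at least 1 RPKM in either library are described here, out of 12470 such genes in the whole table. RPKM scales the reads of a transcript by its length and by the depth of the library, and the values of a gene's transcripts were added up. One library came from cells that carry the pLKO.AS2 vector with ASC (labelled vector pLKO.AS2_ASC), and the other from cells with the pLKO.AS2 vector alone (labelled genotype control). The genotype label of the ASC library reads SAS overexpression, so its group was taken from the vector label. ASC is the inflammasome adaptor encoded by PYCARD. Both lines were kept under G418 and puromycin selection in DMEM with FBS, so the control cells share the vector and the drugs. Whether each line is 1 clone or a pool, and which promoter drives ASC, is not given in the sources used here. Each group has 1 library, so no difference has a replicate check and no test between the groups was possible. The stretch was chosen on the RPKM ratios of these same 2 libraries, which were high along it, so its ratios are given as a description. Whether the lines of each group differ in anything beside ASC cannot be told apart from ASC itself with 1 library each.

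The long arm of chromosome 20 is rich in genes and holds several that are known from epithelial cancers. Among them are the mitotic kinase gene AURKA and its activator TPX2, the cell survival gene BCL2L1, and the growth-linked transcription factor genes MYBL2 and ZNF217. Extra copies of this arm are common in carcinomas and in long-cultured cells. DNA was not measured in this series, so gene copies cannot be read from these values. The centromere of the chromosome lies in the gap between ZNF337 and FRG1BP, the widest between neighbouring members, with 4.70 Mb between their starts. The 9 members before this gap therefore lie on the short arm, and 241 members lie past it on the long arm, from FRG1BP at 30377372 to PCMTD2 at 64255695. The 9 are kept in the counts and are also given on their own.

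Promoter sequences are shown for 4 members that differ in their ratio, so that their starts can be compared base by base. B4GALT5 and BCL2L1 are among the 12 largest ratios of members of at least 5 RPKM. RPS21 is the most abundant member, and ID1 is the abundant member with the lowest ratio. Each runs from 250 bases before to 50 bases after the RefSeq start (GRCh38.p14), 5′ to 3′ on the gene's strand. Capitals mark matches, on either strand, to the TATA box letters TATAAA, to the CCAAT box and to the GC box letters GGGCGG.
B4GALT5: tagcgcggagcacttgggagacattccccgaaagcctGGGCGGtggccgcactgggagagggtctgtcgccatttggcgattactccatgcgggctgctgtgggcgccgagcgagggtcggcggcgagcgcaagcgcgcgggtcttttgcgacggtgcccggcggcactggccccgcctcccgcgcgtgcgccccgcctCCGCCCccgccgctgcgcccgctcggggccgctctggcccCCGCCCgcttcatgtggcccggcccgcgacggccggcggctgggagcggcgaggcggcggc
BCL2L1: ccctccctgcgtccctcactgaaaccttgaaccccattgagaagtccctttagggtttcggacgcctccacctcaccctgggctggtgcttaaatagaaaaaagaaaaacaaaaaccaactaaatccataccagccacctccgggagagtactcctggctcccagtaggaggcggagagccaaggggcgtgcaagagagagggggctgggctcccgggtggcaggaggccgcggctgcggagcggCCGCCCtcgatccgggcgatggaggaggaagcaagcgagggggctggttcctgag
RPS21: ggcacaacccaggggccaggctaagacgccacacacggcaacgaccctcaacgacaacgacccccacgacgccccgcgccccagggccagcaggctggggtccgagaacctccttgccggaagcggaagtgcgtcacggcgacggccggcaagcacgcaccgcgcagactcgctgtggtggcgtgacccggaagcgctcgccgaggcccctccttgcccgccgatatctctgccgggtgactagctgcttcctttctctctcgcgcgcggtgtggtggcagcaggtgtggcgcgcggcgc
ID1: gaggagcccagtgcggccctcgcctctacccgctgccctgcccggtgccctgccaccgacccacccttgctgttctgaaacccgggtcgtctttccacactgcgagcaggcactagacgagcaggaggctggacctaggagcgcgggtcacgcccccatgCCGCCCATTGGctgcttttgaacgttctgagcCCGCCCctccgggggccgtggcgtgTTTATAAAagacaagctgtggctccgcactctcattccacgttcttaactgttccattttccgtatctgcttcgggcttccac
The B4GALT5 window spans 49713829 to 49714128 on the minus strand, that of BCL2L1 31722819 to 31723118 on the minus strand, that of RPS21 62386853 to 62387152 on the plus strand and that of ID1 31605039 to 31605338 on the plus strand. The RefSeq starts of these 4 genes lay between 0 and 30 bases from the start of the most abundant listed transcript. B4GALT5 had 3 matches to GGGCGG, BCL2L1 had 1 and RPS21 had none of the 3 motifs. ID1 had matches to all 3, with TATAAA found on both strands in overlapping letters (2 matches), 1 match to CCAAT and 2 to GGGCGG. A match is a description of the letters and not a measured binding site.

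Of the 250 members, 186 were matched to a RefSeq promoter, 8 of them through a synonym. For 143 of the 186 the RefSeq start lay within 100 bases of the start of the most abundant transcript. The others were farther off, such as CDH4 at 246995 bases and TAF4 at 57694. All were kept in the shares below, so some of these promoters may not be the ones in use. Among the largest ratios, TGM2, SLPI, CYP24A1, EEF1A2, PTK6 and AURKA were not matched. The letters GGGCGG were found in 70.6% of the 177 matched promoters past the centromere gap, in 67.3% of the promoters of all compared genes and in 44.9% of all promoters of the RefSeq table. For CCAAT these shares were 27.1%, 35.0% and 34.6%, and for TATAAA 7.91%, 5.92% and 11.6%. The sets are unlike in their units. Each member has a single promoter, the one nearest the start of its main transcript. For all compared genes every promoter with the same symbol is counted (13061), without synonyms. The 125 genes past the gap whose promoter holds GGGCGG had a median log2 ratio of 0.21 and the 52 without it one of 0.20, with 86.4% and 86.5% above 0. With and without CCAAT, 85.4% of 48 and 86.8% of 129 genes lay above 0, and with and without TATAAA 71.4% of 14 and 87.7% of 163. By rising GC content of the promoter, the share above 0 was 80.3%, 86.0% and 93.2% in 3 groups whose medians were all 0.20.

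The ASC library holds 31426491 listed reads and that of the control 31289581. PYCARD stood at 266.5 against 1.36 RPKM, the direction of the labels. All 9 epithelial markers looked for reached 1 RPKM in at least 1 library, with values from 8.13 to 1363 RPKM. PTPRC, the pan-leukocyte marker, was at 0.0542 RPKM with ASC and listed at 0 in the control, and the 4 fibroblast markers in the table were all under 1 RPKM. CD68, which is not limited to leukocytes, stood at 24.1 against 25.9 RPKM, and of 3 endothelial markers only CDH5 passed 1 RPKM, at 2.23 against 1.23. In bulk RNA, fewer cells with a transcript and less of it per cell cannot be told apart. Values are written as the ASC library against the control library. Log2 ratios are of RPKM + 1, so those of low genes come out smaller than the plain ratio. A 95% interval, where given, is that of the log2 ratio of reads scaled to the listed total (exact binomial) and covers counting error only.

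Most members were somewhat higher in the ASC library. Of the 250, 202 (80.8%) had a log2 ratio above 0, where 52.0% of all 12470 compared genes did. The median was 0.20, equal to 1.15-fold, beside 0.01 over all compared genes. At least 25% higher were 63 members (25.2%, with 8.88% over all genes), and at least 20% lower were 10 (with 8.72% over all genes). At least 2-fold higher were 5 members (2.00%, with 0.617% over all genes), and none was at least 2-fold lower (0.265% over all genes). Of these 5, PI3 and TMSB4XP6 passed the filter only through the ASC library, where they are high. With reads in place of RPKM, the counting interval lay above 0 for 165 members (66.0%, with 28.5% over all genes) and below 0 for 16 (6.40%, with 27.0% over all genes). These shares belong to the contrast by which the stretch was picked out and are not independent support for it.

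The difference was also present in the total of reads. Members held 2.61% of listed reads with ASC and 2.15% without it, a ratio of 1.21. For the members past the gap the ratio was 1.22. TGM2 and EEF1A2 took a visible part of this. Without both, the remaining 239 genes past the gap held 2.40% and 2.04% of the reads, a ratio of 1.17, and their median log2 ratio was 0.20. Without the 5 genes past 2-fold the median of the other 245 members was 0.20 as well.

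**Figure D1:**
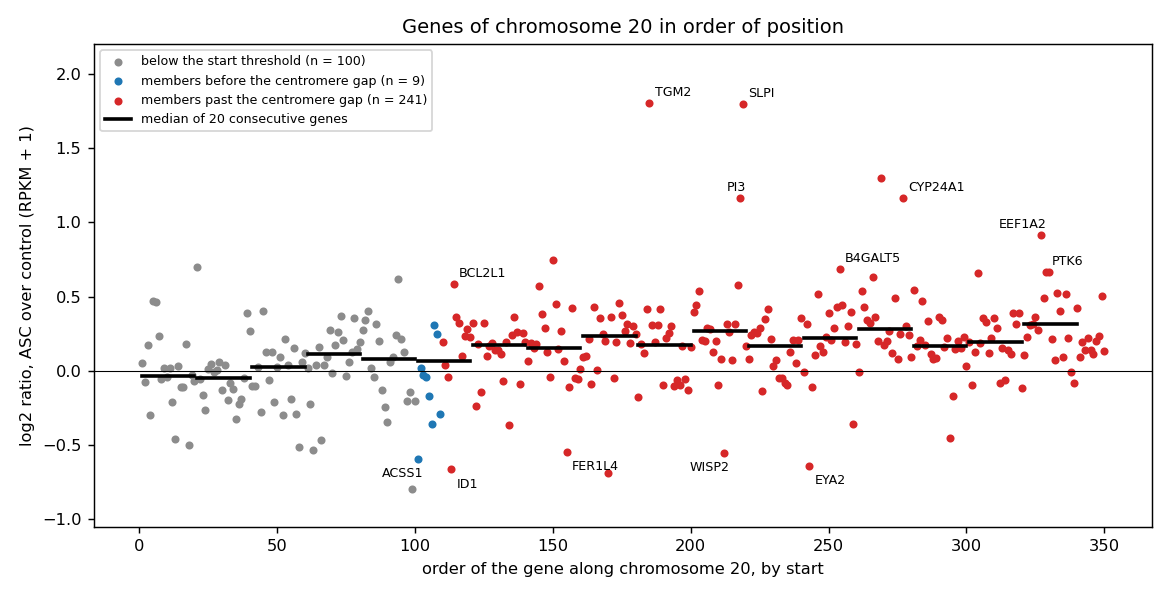
Log2 ratio of each of the 350 compared genes of chromosome 20 (vertical axis, ASC over control) in order of position (horizontal axis, 1 point per gene), with 20-gene medians as black lines. Points below the start threshold scatter around 0, and most of the 241 points past the centromere gap lie above it.

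The higher ratios began past the centromere gap and not at position 25000000. Of the 9 members before the gap, 3 lay above 0, and their median was -0.04. ACSS1, the mitochondrial acetyl-CoA synthetase gene and the first member by start (25006230), stood at 2.36 against 4.07 RPKM. ENTPD6 stood at 37.4 against 36.8 RPKM, and PYGB, the brain form of glycogen phosphorylase, at 34.1 against 34.7. The replication gene GINS1 stood at 15.8 against 17.9 RPKM and the zinc finger gene ZNF337 at 10.9 against 13.6. These short-arm members were level or lower in the ASC library, with NANP and ZNF337-AS1 the exceptions (log2 ratios of 0.31 and 0.25). ZNF337-AS1 overlaps both NANP and ZNF337 on the other strand. Just outside the threshold, CST3, the cystatin C gene, stood at 78.7 against 86.8 RPKM, the noncoding RNA RP4-568C11.4 at 0.784 against 2.10 and APMAP at 58.9 against 68.1.

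The first genes past the gap were mixed. FRG1BP had a log2 ratio of 0.19, HM13, a signal peptide peptidase gene, stood at 82.5 against 80.4 RPKM, and MCTS2P had -0.04. Then came ID1, at -0.66, and right after it BCL2L1 at 0.59, TPX2 at 0.36 and PDRG1 at 0.32. From there on, ratios above 0 prevailed up to the end. The last member, PCMTD2, stood at 16.4 against 14.8 RPKM. Of the 241 members past the gap, 199 (82.6%) lay above 0, with a median of 0.20, a lower quartile of 0.09 and an upper quartile of 0.32.

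In pieces of 5 Mb past the gap, every median was above 0.15. From 30 to 35 Mb it was 0.19 over 37 genes, from 35 to 40 Mb 0.21 over 46, from 40 to 45 Mb 0.18 over 24 and from 45 to 50 Mb 0.21 over 42. The piece from 50 to 55 Mb had the highest median, 0.28 over 20 genes, with 18 of them above 0. It was followed by 0.16 over 25 genes from 55 to 60 Mb and 0.22 over 47 genes from 60 Mb to the end. The share above 0 was lowest from 40 to 45 Mb, with 17 of 24 genes, and highest from 50 to 55 Mb. The longest unbroken run of members above 0 held 32 genes, from LINC01273 to NPEPL1. The longest run below 0 past the gap held 4, ZSWIM1, NEURL2, CTSA and PLTP. Runs as long occur elsewhere, since chromosome 7 had one of 35 genes above 0.

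Cut into consecutive windows of 20, the members gave 12 medians between 0.07 and 0.31. The lowest belongs to the first window, from ACSS1 to KIF3B, which holds the 9 short-arm genes. The highest was the last full window, from TCFL5 to SLC2A4RG. Members past SLC2A4RG did not fill a window and are left out of these medians. Their log2 ratios ran from 0.10 for RP4-591C20.9 to 0.50 for RGS19. Of these 12 medians 11 were above 0.1, and of 601 windows over the rest of the genome 77 (12.8%) were. Among all 613 windows, 6 of the 20 highest came from these members, although the top 2 were on chromosome 7. Along the arm the ratio had nearly no trend, with Pearson's r of 0.12 and Spearman's rho of 0.13 between start and log2 ratio over 240 genes, which share both libraries.

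The short-arm part below 25000000 was close to the rest of the genome. Of its 100 compared genes, 55 (55.0%) lay above 0, with a median of 0.02, 10 genes at least 25% higher and 8 at least 20% lower. Its share of reads was 0.685% with ASC and 0.669% without it, a ratio of 1.02. The exception within it was the piece from 15 to 20 Mb, where 15 of 18 genes lay above 0 with a median of 0.18, a value like that of the long arm on few genes. The pieces from 0 to 5 Mb (47 genes) and from 20 to 25 Mb (15 genes) had medians of -0.05 and 0.06.

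**Figure D2:**
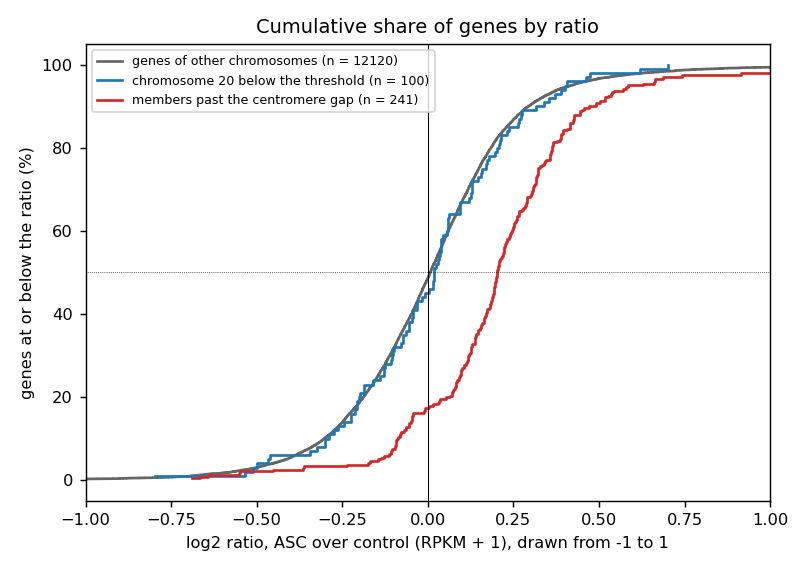
Share of genes (vertical axis, percent) at or below each log2 ratio (horizontal axis) for the members past the centromere gap (n = 241), chromosome 20 below the threshold (n = 100) and the other chromosomes (n = 12120). The curve of the members past the gap is shifted to the right over nearly its whole height, while the other 2 curves run together.

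No other chromosome had as high a median, though this sets a part chosen on its ratios beside whole chromosomes. Chromosome 20 as a whole had a median of 0.16. Shorter stretches elsewhere were as high. The highest median of 20 consecutive genes over the rest of the genome was 0.39, beside 0.31 among the members. Medians of the other chromosomes ran from -0.15 on chromosome 2 to 0.06 on chromosome 21, and the share of genes above 0 from 26.4% on chromosome 2 to 62.1% on chromosome 22. Chromosomes 7 and 8 had medians of -0.13 and -0.10. Past the gap the distance from the lower to the upper quartile was 0.23, beside 0.29 below 25000000 and 0.29 on the other chromosomes. These sets are not at like level, with medians of mean level of 17.0, 10.9 and 10.7 RPKM. Split into a low, a middle and a high group by mean level, the genes past the gap had quartile distances of 0.38, 0.20 and 0.17. The SD over genes, which the few large ratios widen, was 0.29 past the gap, 0.25 below 25000000 and 0.29 on the other chromosomes.

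**Figure D3:**
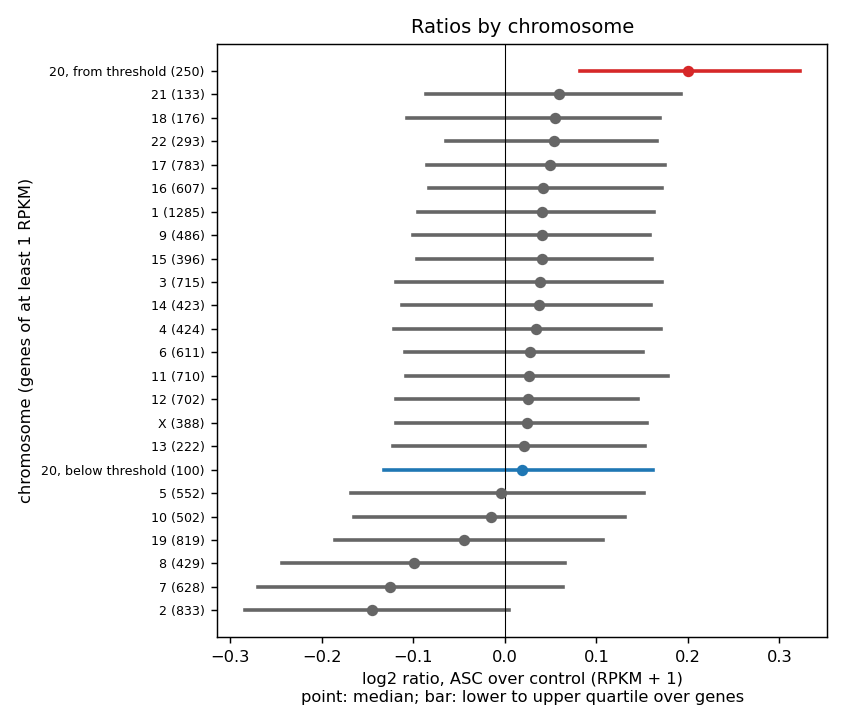
Median log2 ratio (point) and lower to upper quartile over genes (bar) for each chromosome, with chromosome 20 split at the threshold and the number of compared genes in parentheses. The part from the threshold, which was chosen on its ratios, has the highest median, 0.20. The other chromosomes, each taken whole, lie between -0.15 and 0.06.

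How evenly the arm was higher depended on the level of the genes. Split into 3 groups by mean level, the lowest 80 genes past the gap (0.713 to 7.87 RPKM) had 65.0% above 0 and a median of 0.12. The middle 81 had 88.9% above 0 and a median of 0.21, and the highest 80 (30.9 RPKM and above) had 93.8% and 0.25. With reads in place of RPKM + 1, the 3 medians were 0.14, 0.22 and 0.24, in the same order. The same 3 groups were not counted over all compared genes. Spearman's rho between mean level and log2 ratio was 0.24 over 240 genes past the gap and 0.05 over 12462 of all genes. Counting error is widest for the low genes, and its part in this was not tested. By strand, the 127 genes on the plus strand and the 114 on the minus strand had medians of 0.22 and 0.18. By GC content of the main transcript, medians were 0.20 in the low, the middle and the high group, with 86.2%, 86.2% and 75.0% above 0. Over 240 genes the correlation of log2 ratio with GC content was -0.05 (Pearson) and with transcript length 0.09.

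Genes whose span overlaps that of another compared gene had a lower share above 0. The library kit does not mark strand, so reads from exons shared with a gene on the other strand cannot be told apart. Of the 76 members that overlap another compared gene, 52 overlap one on the other strand. Past the gap, 170 genes overlapped no other compared gene, and 153 of them (90.0%) lay above 0 with a median of 0.23. Of the 71 that did, 46 (64.8%) lay above 0 with a median of 0.13. The overlapping genes were also lower, with a median level of 12.1 RPKM against 20.1. Among genes with a mean of at least 5 RPKM the shares were 94.8% of 134 and 77.8% of 45. The same split over all compared genes was not counted, so it is not read as a feature of this arm. The part of read assignment in this was not tested.

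**Figure D4:**
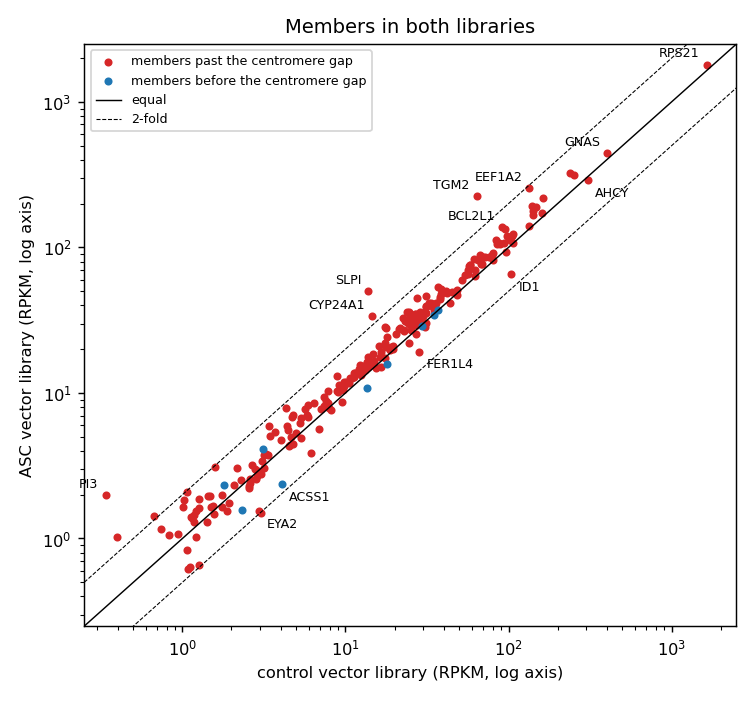
Level of each member in the ASC library (vertical axis, RPKM, log scale) against the control library (horizontal axis, RPKM, log scale), with lines of equal level and of 2-fold difference in plain RPKM. Most of the points lie slightly above the line of equal level, TGM2, SLPI, CYP24A1 and PI3 stand well above it and ID1 below it. The pseudogene TMSB4XP6, at 0 in the control library, is left out.

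TGM2 had the highest log2 ratio of RPKM + 1 (1.80), just above SLPI (1.79), while SLPI (3.64-fold) and the low PI3 (5.88-fold) were ahead of it in plain RPKM. TGM2 encodes tissue transglutaminase, an enzyme that crosslinks proteins inside and outside the cell. TGM2 (ENSG00000198959.11, minus strand, 38127387 to 38166578) stood at 225.7 against 63.9 RPKM, 3.53-fold. Its reads were 35149 against 10029, with a log2 ratio of reads of 1.80 (95% interval 1.77 to 1.84). Of its 6 listed transcripts, ENST00000361475.6 held 87.6% of the reads with ASC and 88.5% without it, nearly the same share. Its 10 nearest compared neighbours had a median log2 ratio of 0.22. Next to it, RPRD1B, which overlaps it on the other strand, stood at 24.2 against 17.9 RPKM, and SNHG17 at 70.3 against 56.6. None of these neighbours came near the ratio of TGM2.

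SLPI and PI3 encode related protease inhibitors of epithelial secretions, of the family with a whey acidic protein domain, and start 77.4 kb apart. SLPI (ENSG00000124107.5, 45252239 to 45254564) stood at 50.4 against 13.8 RPKM, with 1071 against 295 reads. Its log2 ratio of reads was 1.85 (1.67 to 2.04). PI3, the elafin gene, was low, at 1.99 against 0.339 RPKM from 41 against 7 reads, and its interval was wide (1.37 to 3.95). WFDC2, another gene of this family among the members, stood at 41.3 against 33.6 RPKM. It had a log2 ratio of 0.29, close to the rest of the arm. The potassium channel gene KCNS1, 82.6 kb before PI3, was low as well, at 2.08 against 1.06 RPKM. On the other side of SLPI the proteoglycan gene SDC4 stood at 88.9 against 79.2 RPKM.

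CYP24A1 encodes the enzyme that breaks down the active form of vitamin D. It stood at 33.7 against 14.5 RPKM. These values rest on 2544 and 1066 reads, and the counting interval ran from 1.14 to 1.35. The difference was seen in its main transcript ENST00000216862.7, at 13.9 against 5.24 RPKM, and in ENST00000395955.7, at 6.53 against 3.19. Its neighbours ZNF217, a transcription factor gene, and PFDN4, a prefoldin subunit gene, had log2 ratios of 0.25 and 0.30. The last gene counted as 2-fold higher was TMSB4XP6, a processed pseudogene with 7.04 estimated reads with ASC and none in the control. A single short pseudogene with so few reads gives no usable ratio.

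EEF1A2 fell just short of 2-fold on this scale. It encodes the tissue-restricted form of the elongation factor that brings aminoacyl-tRNA to the ribosome. EEF1A2 stood at 254.2 against 134.5 RPKM, 1.89-fold, and the counting interval of its reads ran from 0.87 to 0.94. Both of its listed transcripts differed, one at 131.9 against 72.7 RPKM and the other at 122.3 against 61.8. It lies in a group of members with high ratios near the end of the arm. PTK6, a tyrosine kinase gene of epithelia, stood at 28.4 against 17.6 RPKM, and PPDPF at 133.4 against 94.6. HELZ2, a low helicase gene, stood at 3.10 against 1.59 RPKM. The median of the 10 neighbours of EEF1A2 was 0.31.

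Other members with large ratios lay at several places on the arm, with STMN3 close to EEF1A2 and FAM65C close to B4GALT5. B4GALT5, a galactosyltransferase gene of glycolipid synthesis whose promoter is printed above, stood at 45.1 against 27.6 RPKM. CDH4, a cadherin gene, stood at 5.92 against 3.37 RPKM, and FAM65C at 28.1 against 17.8. ACSS2, which makes acetyl-CoA from acetate in the cytosol and nucleus, stood at 35.9 against 23.9 RPKM. STMN3, a stathmin gene of microtubule turnover, stood at 35.9 against 24.6. All 5 had counting intervals above 0. ACSS2 was higher with ASC while ACSS1, its mitochondrial counterpart on the short arm, was 1.73-fold lower.

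BCL2L1, the survival gene of the BCL2 family, stood at 137.4 against 91.2 RPKM, 1.51-fold. Its transcripts did not differ alike. ENST00000307677.4 stood at 75.0 against 54.7 RPKM and ENST00000376062.6 at 42.8 against 22.8, though reads of forms this similar are divided by estimate. Members are also described by 8 lists by function, and their counts stand beside 80.8% above 0 and 25.2% at least 25% higher over all members, and 52.0% and 8.88% over all genes. No list was tested against the rest. Of the 11 members in the cell survival and death list, all lay above 0, with a median of 0.23, beside 0.20 for all members. TOMM34, of mitochondrial import, stood at 51.3 against 48.6 RPKM and BLCAP at 85.8 against 72.0. TP53RK and STK4 had log2 ratios of 0.31 and 0.32.

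Of 23 members with roles in mitosis, the cell cycle and DNA replication, 21 (91.3%) lay above 0, with a median of 0.23. At least 25% higher were 8 (34.8%) and at least 20% lower 1, beside 63 and 10 of all 250 members. Both exceptions, NINL and GINS1, lie before the gap. AURKA stood at 46.1 against 31.4 RPKM, and UBE2C, the ubiquitin-conjugating enzyme of mitotic exit, at 111.7 against 83.5. TPX2 stood at 75.2 against 58.4 RPKM, and the transcription factor gene MYBL2 at 32.8 against 24.7. CSE1L, a nuclear export factor gene, stood at 166.9 against 142.2 RPKM. The topoisomerase gene TOP1 stood at 86.1 against 69.6 RPKM, and MAPRE1, of microtubule ends, at 81.6 against 65.0.

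Proteolysis genes had a median of 0.27 over 12 members, of which 11 (91.7%) lay above 0, beside 80.8% of all members. PSMA7, a subunit gene of the proteasome core, stood at 314.5 against 250.5 RPKM. CTSZ, a lysosomal cathepsin gene, stood at 124.6 against 106.4 RPKM, UBE2V1 at 86.0 against 75.7 and the ubiquitin ligase gene ITCH at 64.5 against 54.0. CTSA, another lysosomal enzyme gene, was the exception, at 41.4 against 43.8 RPKM. SLPI and PI3 belong to this list, so 2 of its 12 members were past 2-fold, beside 2.00% of all members and 0.617% of all genes. PI3, at 1.99 against 0.339 RPKM, passed the filter only through the ASC library, where it is high, so its place in this count is no support.

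Metabolic enzyme genes had a median of 0.08 over 27 members, of which 20 lay above 0 and 7 below. The list holds TGM2 and CYP24A1 as well as 4 genes before the gap. ACSS1, also a metabolic enzyme gene, is not in it and had a log2 ratio of -0.59, below the lowest of the list (-0.09). AHCY, which breaks down S-adenosylhomocysteine, was abundant and slightly lower, at 289.4 against 307.8 RPKM (log2 ratio of reads -0.10, interval -0.13 to -0.08). ROMO1, a small mitochondrial protein gene, stood at 107.2 against 106.2 RPKM. ADA, the adenosine deaminase gene, stood at 25.3 against 27.1 RPKM, NFS1 at 14.8 against 15.4 and ATP5E, an ATP synthase subunit gene, at 63.8 against 62.5. GSS, of glutathione synthesis, stood at 74.7 against 57.0 RPKM, and SULF2, a heparan sulfate sulfatase gene, at 32.5 against 22.4.

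**Figure D5:**
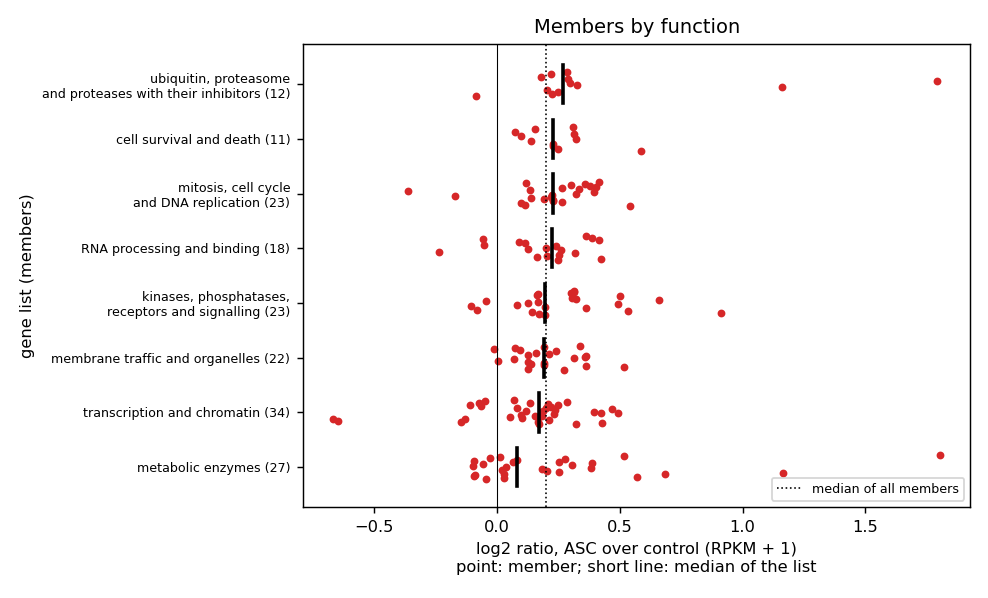
Log2 ratio (horizontal axis) of each member in 8 lists by function, with the number of members in parentheses, the median of each list as a short line and the median of all members dotted. List medians lie between 0.08 for metabolic enzymes and 0.27 for proteolysis, on both sides of the 0.20 of all members.

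Of 34 members in the transcription and chromatin list, 26 lay above 0 and 8 below, with a median of 0.17. NELFCD, a subunit gene of the negative elongation factor, stood at 69.8 against 62.6 RPKM. SLC2A4RG stood at 51.8 against 38.4 and the Polycomb-linked gene ASXL1 at 35.9 against 28.6. The epithelial factor gene TFAP2C stood at 7.01 against 4.77 RPKM and CEBPB at 31.3 against 23.0. ZMYND8, a chromatin reader gene, was slightly lower, at 15.1 against 16.4 RPKM, and the methyltransferase gene DNMT3B was low, at 2.23 against 2.57. The lowest ratio of the list was that of ID1, -0.66, at 65.3 against 104.1 RPKM. At least 25% higher were 5 of the 34 and at least 20% lower 2, beside 63 and 10 of all 250 members.

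RNA processing genes numbered 18, with 15 above 0 and a median of 0.22. The highest ratio of the list was that of CPNE1, which encodes a copine, a calcium-dependent lipid-binding protein, and not an RNA-processing factor. CPNE1, which overlaps the RNA-binding protein gene RBM12, stood at 218.4 against 162.4 RPKM, while RBM12 stood at 30.2 against 31.3. STAU1, an RNA transport gene, stood at 88.4 against 67.3 RPKM and RALY at 104.8 against 88.5. The ratio of RBM39 depended on the transcripts used. This splicing factor gene stood at 171.7 against 161.2 RPKM, but had a log2 ratio of -0.05 when its most abundant transcript was used in place of the sum, and SRSF6, another splicing factor gene, stood at 92.6 against 96.3.

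Signalling genes numbered 23, of which 20 lay above 0, with a median of 0.20. This list also holds EEF1A2, which is a translation factor gene and has its highest ratio, followed by PTK6. GNAS, the gene of the stimulatory G protein subunit, stood at 444.6 against 402.0 RPKM. The adaptor gene YWHAB stood at 106.3 against 85.3 RPKM, the tyrosine kinase gene SRC at 47.9 against 38.7 and the phosphatase gene PTPN1 at 33.5 against 26.5. PLCG1, the phospholipase gene of receptor signalling, stood at 28.5 against 30.7 RPKM. Its counting interval (-0.11 to 0.03) holds 0. Membrane traffic and organelle genes numbered 22, with 21 above 0 and a median of 0.19. The endoplasmic reticulum gene ERGIC3 stood at 141.1 against 134.5 RPKM, TPD52L2 at 120.6 against 105.4, the dynein chain gene DYNLRB1 at 107.6 against 93.9 and the syntaxin gene STX16 at 76.6 against 68.6.

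The 5 most abundant members were RPS21, GNAS, AHCY, PSMA7 and ZFAS1, with log2 ratios from -0.09 for AHCY to 0.43 for ZFAS1. RPS21, a ribosomal protein gene, stood at 1806 against 1642 RPKM (log2 ratio 0.14). The noncoding RNA ZFAS1, a host of small nucleolar RNAs, stood at 323.0 against 240.0 RPKM, though it overlaps ZNFX1 on the other strand. Among 89 members in no list, the translation factor genes EIF2S2 and EIF6 stood at 190.4 against 147.6 and 191.4 against 139.8 RPKM. The noncoding RNA NORAD stood at 83.2 against 61.7 RPKM and RPN2, of protein glycosylation, at 176.9 against 141.9.

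Below 0 past the gap were 42 members, of which 31 lay between -0.15 and 0, and for 30 the counting interval held 0. Their median level was 3.76 RPKM. A few went clearly against the rest of the arm. ID1, an inhibitor of basic helix-loop-helix transcription factors and a known target of BMP signalling, stood at 65.3 against 104.1 RPKM. Its 1.59-fold lower level came from 2410 against 3858 reads, with a log2 ratio of reads of -0.69 (interval -0.76 to -0.61). Both of its transcripts were lower, and the 8 neighbours used for it, 3 before and 5 after, had a median of 0.21.

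The other lower genes were scattered. EYA2, a phosphatase and transcription cofactor gene, was low, at 1.53 against 2.96 RPKM. WISP2, a secreted CCN family gene, stood at 3.85 against 6.12 RPKM, and FER1L4, a transcribed pseudogene, at 19.1 against 28.4. The readthrough transcript TGIF2-C20orf24 had the lowest ratio of all members, at 1.50 against 3.03 RPKM, but its reads are divided by estimate between it and 2 member genes, TGIF2 and C20orf24. Both stood above 0, with log2 ratios of 0.20 and 0.36. NOL4L stood at 5.65 against 6.84 RPKM. COL9A3, a collagen chain gene, stood at 8.68 against 9.47, with a counting interval of -0.26 to 0.16 that holds 0. The neighbours of EYA2, FER1L4 and WISP2 had medians of 0.15, 0.11 and 0.23. Below 0 among these neighbours were ZMYND8 and SLC13A3 near EYA2, SPAG4, RBM12 and NFS1 near FER1L4, and ADA near WISP2, at -0.11 or above.

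The filter kept 239 members that reached 1 RPKM in both libraries, 7 that did so with ASC only and 4 in the control only. Just inside it were JPH2, at 1.03 against 0.399 RPKM, PREX1 at 1.06 against 0.830 and GNAS-AS1 at 0.835 against 1.06. Just outside was KCNK15, at 0.906 against 0.581. Of the 187 listed genes of this part of the chromosome under the filter, 104 were higher with ASC and 83 in the control. The same split over all genes under the filter was not counted, so these numbers are not read as part of the difference. With the filter left out, 51.1% of all 24136 genes lay above 0. Only 15 of the 187 had over 50 reads in both libraries together.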

How the data were processed

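RNA of SAS cells with the ASC vector or the vector alone was sequenced, 1 library per group. Per the labels' protocols, RNA was taken with TRIzol and libraries were made with a TruSeq RNA kit. The submitters' processing notes name hg38. Aligner, quantifier and annotation: not given in the sources used here. Per the file headers, the authors deposited estimated counts (reads per transcript, fractional, not scaled to depth) and RPKM for 134092 transcripts. Of the transcript identifiers, 98.4% equal GENCODE 29 with version, with equal starts and stops 1 past the end, and 1 was taken off each stop. Gene types, GC content and length come from GENCODE 29. Spreadsheet dates in 285 gene names were restored through the transcript.

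RPKM was summed per gene and chromosome, filtered at 1 RPKM in either library and compared as log2(RPKM + 1). The 31426491 and 31289581 listed reads set the counting intervals (95%, Clopper-Pearson, rounded estimated counts), which cover counting error only. The members, lists and tests were chosen with earlier results of these data known. Named genes are the 12 largest and 8 smallest ratios among members of at least 5 RPKM (pseudogenes, readthrough, antisense and unnamed loci left out), members past 2-fold, those at the ends and the 3 on either side of the threshold, the 4 most abundant of each of 8 lists, the 5 most abundant, and PYCARD. Other genes named, the shown promoters, the neighbours and the splits by gap, level, strand, GC content, overlap and motif were chosen after values were seen. Lists hold 210 genes, of which 161 are members and 9 are in more than 1 list. The calculation was tested on simulated data. Alternatives were other pseudocounts, filters, centring, TMM scaling with edgeR 4.0.16 on rounded counts, CPM, the highest transcript, protein-coding genes, other thresholds and windows. Python 3.11.15 with pandas 2.3.3, numpy 2.4.6 and scipy 1.17.1 was used.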

Additional observations from a re-analysis of the deposited data

How the results depend on the processing

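The median log2 ratio of the members stayed above 0 under all 12 alternatives run for it. It was 0.17 with a pseudocount of 3 RPKM, 0.10 with no filter (437 genes) and 0.22 with a filter at 5 RPKM (188 genes), while the other 9 settings left it between 0.19 and 0.22. The share above 0 was 70.0% with no filter and 88.3% at 5 RPKM, beside 51.1% of all 24136 genes and 54.1% of all 8964. The number at least 2-fold higher, 5, became 3 with a pseudocount of 3 RPKM, 3 at 5 RPKM and 3 with CPM. Over all genes, 77 of 12470 became 34 of 12470, 60 of 8964 and 121 of 13539 under the same settings. TGM2, SLPI and CYP24A1 stayed past 2-fold under every alternative, with lowest log2 ratios of 1.77, 1.67 and 1.07. The genes that dropped out were the low PI3 and TMSB4XP6, at 1.99 and 1.46 RPKM with ASC. A filter at 5 RPKM leaves both out, and their lowest log2 ratios over the alternatives were 0.58 and 0.57. The number at least 20% lower, 10, became 6 with a pseudocount of 3 RPKM and 3 at 5 RPKM. It was not counted over all genes under these settings. Centring and TMM moved the median of all genes by at most 0.01. Windows of 10 members gave medians from -0.03 to 0.35 and windows of 40 from 0.15 to 0.25. Of 59 named genes, 57 kept their side of 0 under all of the 6 to 9 alternatives that gave them a value, and RBM39 and ROMO1 changed side, to -0.05 and -0.04, with the highest transcript. No paired analysis was possible because each group has 1 library. Depth limits genes near 1 RPKM, and no replicate error can be given for any value.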
